A study of Mus musculus with 8 samples.

Results

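The regions described here are the H3K4me3 peaks that were called in non-treated (NT) D1 cells and in neither of the treated cultures. H3K4me3 is trimethylation of lysine 4 of histone H3. They were chosen by the peak calls themselves: a peak of the NT list was taken when it overlapped, by 1 bp or more, no peak of the curdlan list and no peak of the curdlan and FK506 list. This rule took 826 of the 15799 NT peaks, which is 5.23% of them, and these regions are called NT-only peaks. Set against each treated list alone, 7.98% of NT peaks had no overlap in the curdlan list and 8.47% had none in the curdlan and FK506 list. Of the other NT peaks, 14026 overlapped a peak in both treated lists and are called shared peaks, 512 overlapped the curdlan list alone and 435 overlapped the curdlan and FK506 list alone.

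D1 is a long-term dendritic cell (DC) line from the spleen of C57BL/6 mice. For H3K4me3 ChIP-seq the cells were left untreated, were given 10 μg/ml curdlan for 2 h, or were given curdlan with FK506 for 2 h. For NFATc2 ChIP-seq, D1 cells that stably carried a lentiviral NFATc2 transgene with a V5 tag, sorted for low expression of a linked GFP reporter, were given 10 μg/ml curdlan for 30 min. Each of these conditions was sequenced as 1 ChIP library with its own input. The spread between cultures is therefore not known, and no test between conditions was made. Curdlan is a β-glucan that is bound by dectin-1, and FK506 is an inhibitor of calcineurin, the phosphatase that lets NFAT proteins enter the nucleus.

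H3K4me3 is laid down mainly at the start sites of genes, above all at those with CpG islands, where it forms broad and high peaks. Lower H3K4me3 is also found at some enhancers, which are better known for monomethylation of the same lysine. NFAT factors bind a GGAAA core, often beside AP-1 factors, which bind TGA(C/G)TCA. In DCs the calcium signal that follows dectin-1 engagement activates calcineurin and brings NFATc2 into the nucleus.

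The label of the cells was set against marker genes. An NT H3K4me3 peak lay with its summit within 1 kb of a transcription start site (TSS) at 7 of 10 DC markers, namely Itgax, Zbtb46, Irf8, Sfpi1 (PU.1), Clec7a (dectin-1), H2-Ab1 and Csf2ra. None of 14 markers of T cells, B cells, NK cells, neurons, fibroblasts and muscle had such a peak. In the longer gene lists used below, 3 of 29 T, NK and B cell markers and 2 of 28 neuronal markers had a shared peak at a TSS. None of the 10 DC markers and 14 other markers had an NT-only peak at its TSS. The header totals were 16662316 ChIP tags and 12085435 input tags for NT, 21289349 and 9309800 for curdlan, and 19468498 and 9917958 for curdlan with FK506. The ratio of ChIP tags to input tags was thus 1.38, 2.29 and 1.96. The NT list had the fewest ChIP tags for its input and the most peaks, 15799 against 14872 and 14878. A region missing from a list is a region that did not pass the caller there, which is not a measurement of no H3K4me3, and the part of depth and input in the rule was not tested.

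Sequence sets the NT-only peaks beside the shared peaks at the start sites of the same genes. The stretches below are 151 bp of the forward strand of mm9, centred on the H3K4me3 summit, with every CpG in capitals. They are shown because CpG content took no part in the rule and differed between both kinds of peak. Fli1 and Plcg2 were chosen after their values were seen, as genes of blood cell biology with an NT-only peak and a shared promoter peak. The last line is the NT-only peak with the smallest p.
Fli1 start site, shared peak (chr9:32348110-32348260): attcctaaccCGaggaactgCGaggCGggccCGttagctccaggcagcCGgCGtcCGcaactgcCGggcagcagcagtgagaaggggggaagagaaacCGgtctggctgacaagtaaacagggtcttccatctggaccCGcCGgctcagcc
Fli1 intron, NT-only peak (chr9:32316011-32316161): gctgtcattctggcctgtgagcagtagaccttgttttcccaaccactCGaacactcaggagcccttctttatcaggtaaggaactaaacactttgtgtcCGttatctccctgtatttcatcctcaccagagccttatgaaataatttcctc
Plcg2 start site, shared peak (chr8:120022641-120022791): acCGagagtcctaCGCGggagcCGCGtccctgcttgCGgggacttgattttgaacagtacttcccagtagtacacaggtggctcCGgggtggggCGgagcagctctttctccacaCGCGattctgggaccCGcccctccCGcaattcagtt
Plcg2 upstream, NT-only peak (chr8:120006111-120006261): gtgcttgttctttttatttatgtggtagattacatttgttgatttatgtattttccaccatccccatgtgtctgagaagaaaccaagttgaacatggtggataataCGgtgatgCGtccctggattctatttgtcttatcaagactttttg
Acpt upstream, NT-only peak (chr7:51524542-51524692): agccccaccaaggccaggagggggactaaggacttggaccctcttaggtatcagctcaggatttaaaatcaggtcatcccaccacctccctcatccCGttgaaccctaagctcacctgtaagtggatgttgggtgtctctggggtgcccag
The stretches at the shared promoter peaks held 11 and 12 CpG for Fli1 and Plcg2. Those at the NT-only peaks of the same genes held 2 each, and the stretch near Acpt held 1. None of the 5 stretches overlapped an annotated exon.

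The same contrast held over all members. In the 1001 bp around the summit, the observed over expected CpG ratio had a median of 0.270 at the 826 NT-only peaks, with quartiles of 0.198 and 0.368, against 0.652 at the 14026 shared peaks, with quartiles of 0.454 and 0.766. A ratio of 0.6 or more, the usual mark of a CpG island, was reached at 62 NT-only peaks, 7.51% (95% Wilson interval 5.90 to 9.51%), and at 59.0% of shared peaks. Intervals on shares cover counting error only, since peaks of 1 library are not replicates. Median GC content was 48.3% and 55.3%. The NT peaks that overlapped the curdlan list alone or the curdlan and FK506 list alone were close to the NT-only peaks, with medians of 0.302 and 0.301.

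Within each position relative to genes, the size of the contrast depended on the measure of strength by which shared peaks were chosen. Among peaks with the summit within 1 kb of a TSS, the median CpG ratio was 0.489 for 129 NT-only peaks and 0.696 for 10645 shared peaks. It was 0.707 for the 460 shared peaks near a TSS whose tag number lay within the quartiles of the NT-only peaks. A ratio of 0.6 or more was found in 39.5% (31.5 to 48.2%) of NT-only peaks near a TSS and in 68.9% (64.5 to 73.0%) of those 460. Against the 164 shared peaks near a TSS in the same range of fold enrichment the contrast was smaller, with a median of 0.567 and a share of 45.7% (38.3 to 53.4%), whose interval overlapped that of the NT-only peaks. In the same range of p there were 129 shared peaks, with a median of 0.689 and a share of 67.4% (59.0 to 74.9%). Among peaks more than 1 kb from a TSS the medians were 0.258 for 697 NT-only peaks, 0.347 for all 3381 shared peaks and 0.316 for the 488 shared peaks in the same range of tags. There a ratio of 0.6 or more was found in 1.58% (0.883 to 2.80%), 19.05% and 11.9%. The 490 shared peaks of the same range of fold had a median of 0.292 and a share of 5.71% (3.98 to 8.13%), and the 257 of the same range of p had 0.293 and 8.17% (5.41 to 12.2%). In the comparisons by strength only the shared peaks were limited to a range, and the NT-only peaks were taken whole. Near a TSS the 129 NT-only peaks had a median of 46 tags, against 73 in the 460 shared peaks. All comparisons of CpG content by strength were added after the data were seen.

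**Figure D1:**
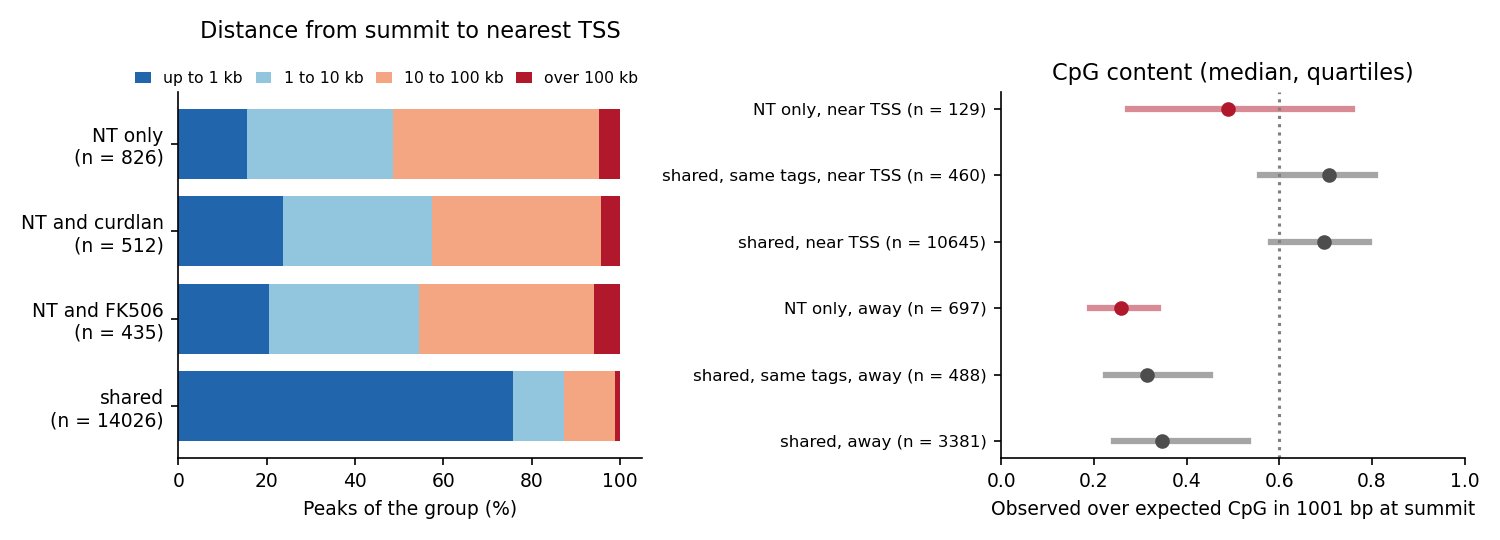
Left, the share of H3K4me3 peaks (percent) by distance from the summit to the nearest TSS, for NT-only peaks, NT peaks that overlap 1 treated list and shared peaks. Right, the observed over expected CpG ratio in 1001 bp around the summit (dot, median; bar, quartiles; dotted line, 0.6). NT-only peaks lie mostly away from start sites, and their CpG ratio has a lower median than that of shared peaks near a TSS (0.489 against 0.696) and away from one (0.258 against 0.347).

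The summit lay within 1 kb of a TSS in 129 of 826 NT-only peaks, 15.6% (13.3 to 18.3%). Over all NT peaks this share was 69.5%, and it was 75.9% (75.2 to 76.6%) in shared peaks, 23.6% in peaks that overlapped the curdlan list alone and 20.5% in those that overlapped the curdlan and FK506 list alone. The median distance to the nearest TSS was 10.8 kb for NT-only peaks and 0.399 kb for shared peaks. More than 10 kb from any TSS lay 425 NT-only peaks, 51.5% (48.05 to 54.8%), against 12.8% of shared peaks. By annotation, 406 NT-only summits were intergenic (49.2%), 357 were intronic (43.2%) and 63 were exonic (7.63%), where shared summits were 22.9% intergenic, 54.2% intronic and 23.0% exonic. NT-only peaks were found on each of the 20 chromosomes in the list, from 3.29% of NT peaks on chromosome 19 to 6.96% on chromosome 12.

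Because shared peaks were far stronger, the TSS share was also compared in equal ranges of strength. Shared peaks with tags inside the quartiles of the NT-only peaks (44 to 99.75 tags) had a TSS share of 48.5% (45.4 to 51.7%, 460 of 948), and NT-only peaks in that range had 11.5% (8.77 to 14.9%, 48 of 418). In equal ranges of fold enrichment (8.33 to 12.185) the shares were 25.1% (164 of 654) and 14.5% (60 of 414). In equal ranges of −log10 p (6.01 to 10.7) they were 33.4% (129 of 386) and 17.0% (70 of 412). NT-only peaks had the lower TSS share in each of the 3, by an amount that depended on the measure of strength. The ranges of fold and p were chosen after the data were seen.

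The strength of the peaks is given as a description, since the rule rests on whether peaks were called. Each peak has a tag count, a fold enrichment over the local input background, and a p and FDR from the caller MACS. NT-only peaks had a median of 66 tags (quartiles 44 and 99.75, range 18 to 496), against 532 in shared peaks. Median fold enrichment was 9.96 (range 4.98 to 29.59) against 37.8, and median −log10 p was 7.56 (range 5.00 to 46.1) against 213. Median length was 1330.5 bp against 2516 bp. Median FDR was 8.29%, and 513 of the 826 (62.1%) had an FDR above 5%, against 2.04% of shared peaks and 7.48% of all NT peaks. A p of 1e-10 or less was reached by 231 NT-only peaks (28.0%), against 90.8% of all NT peaks. NT peaks that overlapped the curdlan list alone or the curdlan and FK506 list alone were also weak. Their medians were 82 and 88 tags, a fold of 10.7 and 11.1 and a −log10 p of 10.0 and 10.2.

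The fewer tags an NT peak had, the more often it was NT-only. Of NT peaks under 50 tags, 43.1% (274 of 636) were NT-only, and this share was 25.1% at 50 to 74 tags, 17.7% at 75 to 99, 11.1% at 100 to 149, 4.58% at 150 to 199 and 0.442% (17 of 3848) at 200 to 499. None of the 7402 NT peaks with 500 tags or more was NT-only. In return, the treated lists had their own weak peaks, as 360 curdlan peaks and 276 curdlan and FK506 peaks overlapped no peak of the other H3K4me3 lists. Their medians were 77.5 and 65 tags, and 50.8% and 60.1% of them had an FDR above 5%, which places them beside the NT-only peaks in tags and FDR. Their median fold enrichment was 18.7 and 14.3, on inputs of fewer tags.

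**Figure D2:**
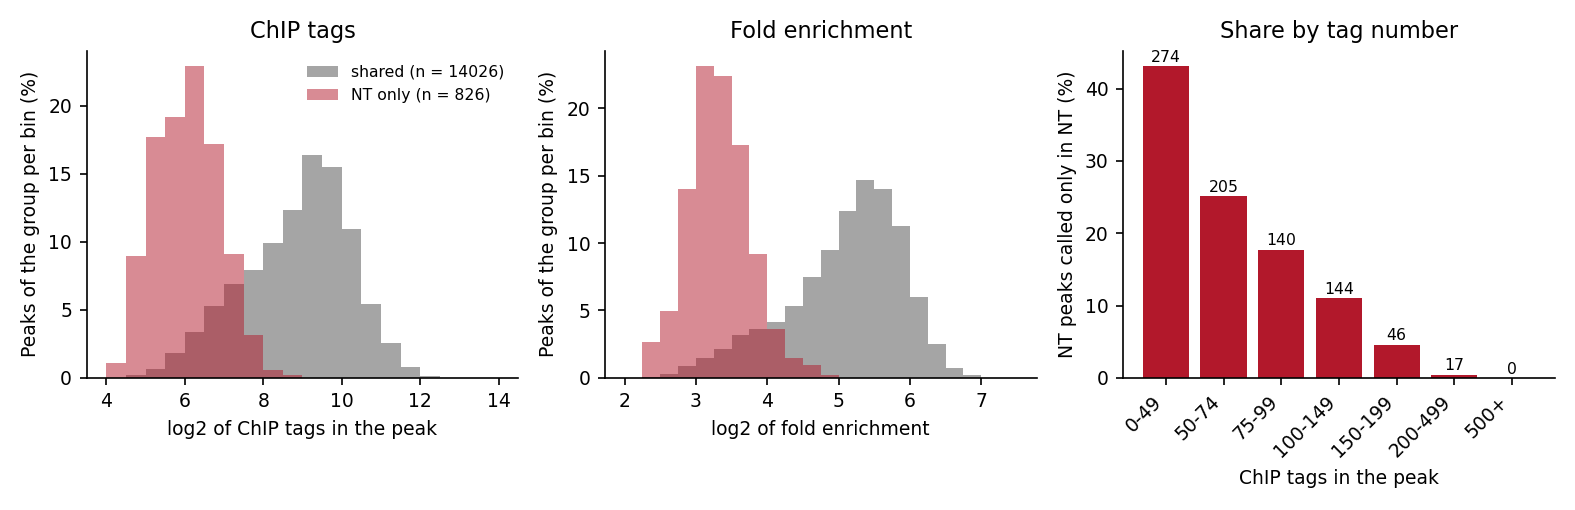
Left and middle, the distribution of ChIP tags and of fold enrichment (log2 scales, percent of each group per bin) for 826 NT-only and 14026 shared H3K4me3 peaks of the NT list. Right, the share of NT peaks that were NT-only by number of tags, with the number of NT-only peaks above each bar, falling from 43.1% under 50 tags to 0 of 7402 at 500 tags or more.

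A rough index of background differed along the genome. It was taken as tags per kb over the whole peak divided by fold enrichment, and is not a direct reading of the input. Its median was 11.9 at the 18 NT-only peaks on chromosome 5 from 120 Mb on. It was 7.41 at the 19 on chromosome 19, against 4.79 at the other 789. Shared peaks showed the same order, with 11.7, 8.01 and 5.37, and so did the curdlan list with 7.53, 5.14 and 3.53. Of the 20 NT-only peaks with the most tags, 7 were in the chromosome 5 stretch and 4 on chromosome 19. High tag numbers there came with fold enrichments no higher than elsewhere (medians of 8.84 and 8.69, against 9.96). The part of background in the calls was not tested.

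At the edge of the rule stood 5 members whose nearest peak in a treated list was 21 to 58 bp away, near Ssh1 (40 tags, 21 bp), Mfsd6 (100 tags, 34 bp), Hist1h3f (31 tags, 44 bp), Six5 (53 tags, 50 bp) and AI480653 (42 tags, 58 bp). Just outside it stood NT peaks near Arhgap4 (38 tags, 40 bp covered), Napsa (50 tags, 85 bp covered), Maz (45 tags, 348 bp covered), Atp2b1 (30 tags, 377 bp covered) and Dhx15 (35 tags, 378 bp covered). The 5 inside had 31 to 100 tags and the 5 outside 30 to 50.

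The 10 NT-only peaks with the smallest p ranged from −log10 p of 26.5 to 46.1. The smallest p belonged to an intergenic peak at chr7:51523683-51525270, 11.9 kb upstream of Acpt, a testicular acid phosphatase. It had 133 tags and a fold enrichment of 26.12, and the nearest curdlan and curdlan and FK506 peaks were 18.2 and 18.3 kb away. The next was in the body of Dido1 on chromosome 2, with 199 tags and a −log10 p of 40.5, only 0.324 and 0.303 kb from peaks of the treated lists. The third lay 5.75 kb upstream of Csk, the kinase that holds Src-family kinases inactive, with 244 tags, a −log10 p of 35.4 and gaps of 3.55 and 4.97 kb.

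The others of the 10 included a peak within the Afp gene, 13.8 kb upstream of Afm, with 107 tags and a fold enrichment of 21.12. Peaks 114 kb downstream of the Mrpl39 start site (173 tags, fold 24.94) and 28.0 kb downstream of the Pabpc2 start site (126 tags, fold 18.78) had an NFATc2 summit 0.097 and 0.111 kb away. A peak upstream of Dscam, an adhesion molecule of neurons, had 269 tags, and 1 upstream of Map3k9 had 74 tags at a fold of 28.33. Only the peak of Ankrd24 (142 tags, fold 13.5) was at a TSS. The last was a Fli1 intron peak, taken up below with its neighbours.

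NT-only peaks at promoters were few and weak. A protein-coding TSS lay within 1 kb of 113 of them, at 112 nearest genes, with a median of 46 tags. For 42 of the 113, the gene had a shared peak within 1 kb of a TSS, which can be the same TSS, and for 71 it had none. A further 16 were near a TSS of noncoding genes only. Over all protein-coding genes, 117 of 22380 (0.523%) had an NT-only peak at a TSS, and 10227 (45.7%) had a shared peak there.

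Predicted genes aside, the promoter member with the most tags was at Cd5, a surface glycoprotein of T cells and some B cells. It spanned chr19:10811881-10814185, with 226 tags, a fold of 9.45, a −log10 p of 15.6 and its summit 0.205 kb into the gene. The nearest treated peaks were 44.8 kb (curdlan) and 44.2 kb (curdlan and FK506) away, and an NFATc2 summit was 2.10 kb away. It lay on chromosome 19, where the background index was high. Cd5 was the only gene of the 29 T, NK and B cell markers with an NT-only peak at its TSS, 3 others had a shared peak there and 25 had no NT peak there.

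Others of the 20 strongest promoter members were at Myl2, the regulatory light chain of heart muscle myosin (186 tags, fold 8.04), at Ccdc162 (159 and 134 tags at 2 start sites) and at Capza2, a subunit of the actin capping protein (151 tags). Rgs10, a regulator of G protein signalling, had 129 tags and an NFATc2 summit 0.223 kb from its peak. Gpr77, the receptor C5aR2, had 111 tags and an NFATc2 summit at 0.314 kb. Cd209c, a C-type lectin of the DC-SIGN family, had 91 tags at a fold of 13.58 and lay 132 kb from the nearest curdlan peak. At Capza2, Ubp1 (101 tags), Tbc1d10b (106 tags) and Tspan13 (81 tags) a shared peak lay 0.213 to 0.753 kb away. Tmem151a (123 tags), Gtf2ird1 (113 tags), Insl6 (100 tags) and Pdzd7 (93 tags) were 12.0 kb or more from a shared peak.

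Away from start sites, several of the members with the most tags were on chromosome 5. The strongest of all, 4.33 kb upstream of Gpr81, a lactate receptor, had 496 tags at a fold of 11.22, and is named after its value was seen. Peaks near Gpr12 (268 tags), Ubl3 (263 tags), Pxn (223 tags) and Alox5ap (221 tags) were on the same chromosome. Peaks elsewhere were at Gcnt1 (216 tags) on chromosome 19, at Fam125b on chromosome 2 (199 tags) and upstream of Plcg2 on chromosome 8 (194 tags, fold 8.22). The folds of these 8 peaks ran from 5.08 to 11.22.

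Most NT-only peaks were not next to a shared peak. The gap from edge to edge had a median of 17.6 kb, with quartiles of 5.21 and 50.6 kb, and ran from 24 bp to 3580 kb. It was at most 1 kb for 63 members (7.63%), at most 2 kb for 111 (13.4%), at most 20 kb for 443 (53.6%) and over 100 kb for 120. The nearest shared peaks had a median of 502 tags, against 532 over all shared peaks. Of them, 64.5% were at a TSS, against 75.9% of all shared peaks. The gaps to the nearest curdlan peak and the nearest curdlan and FK506 peak had medians of 15.9 and 16.2 kb.

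The members nearest to a shared peak were more often at start sites. Within 2 kb of a shared peak, 31 of 111 members (27.9%) were at a TSS, against 51 of 332 (15.4%) at 2 to 20 kb and 47 of 383 (12.3%) beyond 20 kb. Overlap with an NFATc2 peak went the other way, with 16 of 111 (14.4%), 73 of 332 (22.0%) and 80 of 383 (20.9%), where the intervals overlapped. Median tags (63, 72 and 62) and folds (9.65, 9.86 and 10.2) hardly changed with the gap. For the same gaps, 68.5, 61.7 and 65.8% of the nearest shared peaks were themselves at a TSS. A small gap to such a peak places a member close to a start site, and its part in the TSS share was not tested.

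**Figure D3:**
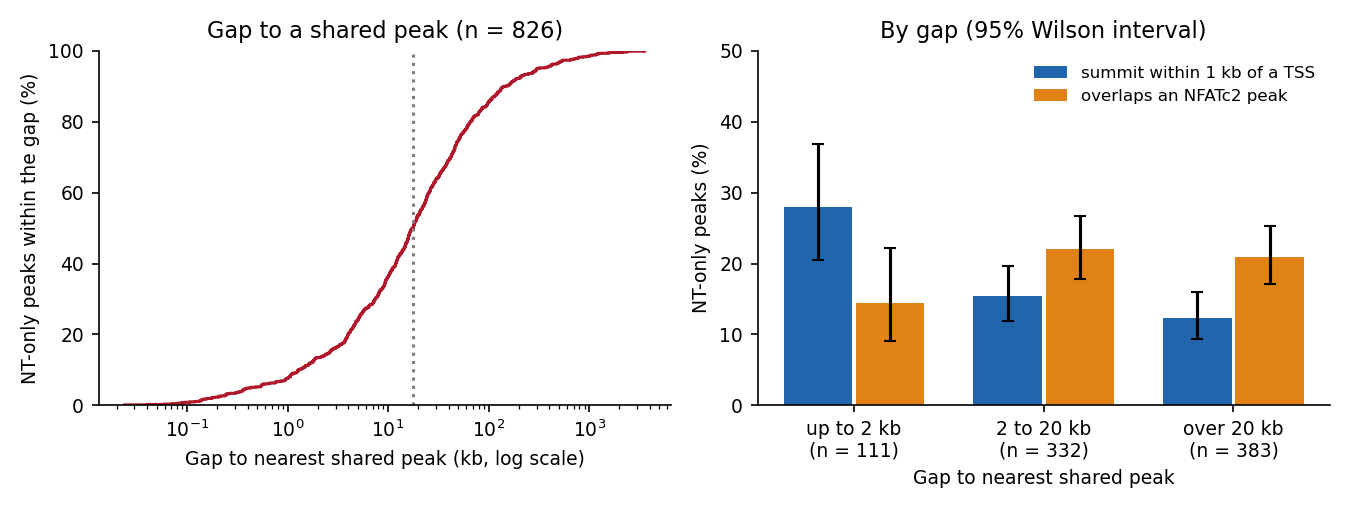
Left, the cumulative share of the 826 NT-only peaks by gap to the nearest shared H3K4me3 peak (kb, log scale; dotted line, median of 17.6 kb). Right, the share of NT-only peaks at a TSS and of those that overlap an NFATc2 peak, by gap, with 95% Wilson intervals, where the TSS share is 27.9% up to 2 kb and 12.3% beyond 20 kb.

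NFATc2 peaks took no part in the rule. An NFATc2 summit lay within 20 kb of the summit of 362 NT-only peaks, 43.8% (40.5 to 47.2%), against 36.3% (35.5 to 37.1%) of shared peaks and 37.0% of all NT peaks. The median distance to the nearest NFATc2 summit was 26.1 kb for NT-only peaks and 39.1 kb for shared peaks. NT peaks that overlapped the curdlan list alone or the curdlan and FK506 list alone lay between them, with 30.8 and 32.3 kb. An NFATc2 peak overlapped 169 NT-only peaks, 20.5% (17.8 to 23.3%), against 13.8% (13.2 to 14.4%) of shared peaks and 14.4% of all NT peaks. More than 1 kb from a TSS the shares that overlapped were 22.7% (19.7 to 25.9%) and 18.8% (17.5 to 20.1%), and those with a summit within 20 kb were 45.3% and 43.8%. The NFATc2 list came from tagged cells given curdlan for 30 min, so NFATc2 occupancy in NT cells was not measured.

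How far NT-only and shared peaks differed depended on the strength they were matched on. In equal ranges of tags, 20.6% (17.0 to 24.7%) of NT-only peaks and 4.54% (3.38 to 6.05%) of shared peaks overlapped an NFATc2 peak. In equal ranges of fold enrichment the shares were 19.1% (15.6 to 23.1%) and 20.2% (17.3 to 23.4%), and in equal ranges of p they were 18.9% (15.4 to 23.0%) and 15.0% (11.8 to 18.9%). The share of NT-only peaks hardly moved between the ranges, and that of shared peaks went from 4.54 to 20.2%. A difference in NFATc2 overlap that is free of the strength of the peaks was therefore not shown. The NFATc2 comparisons in equal ranges of strength were all added after the data were seen.

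**Figure D4:**
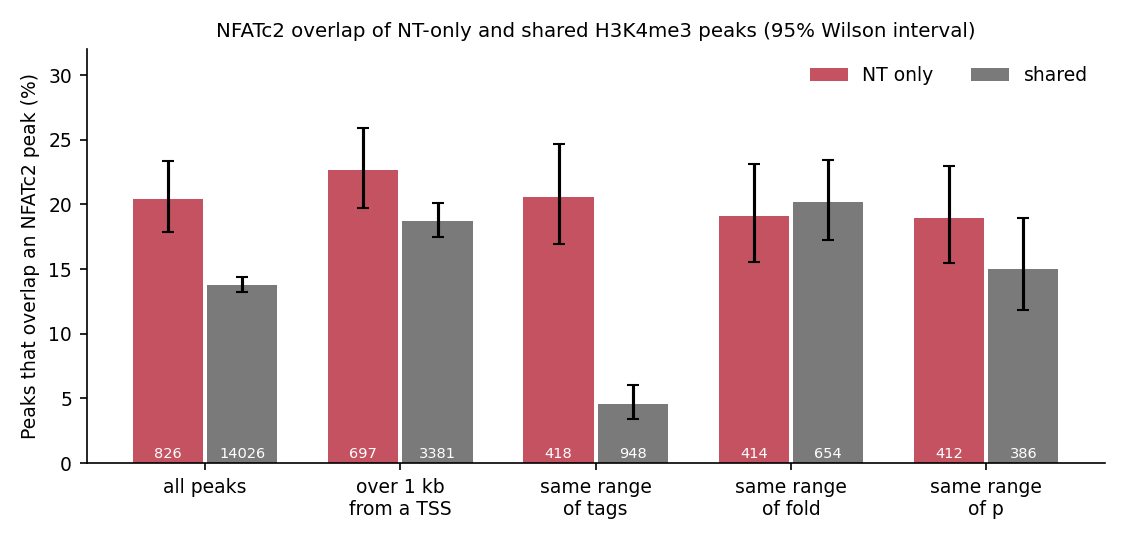
Share of NT-only and shared H3K4me3 peaks (percent, 95% Wilson intervals, number of peaks at the foot of each bar) that overlap an NFATc2 peak, for all peaks, for peaks over 1 kb from a TSS, and within the quartiles of NT-only peaks for tags, fold enrichment and p. NT-only peaks stay between 18.9 and 22.7%, and shared peaks run from 4.54 to 20.2%.

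The 169 NT-only peaks with an NFATc2 peak were mostly distal, as were NT-only peaks in general. Of the 169, 158 were more than 1 kb from a TSS, where 697 of all 826 NT-only peaks were. By annotation 83 were intergenic, 77 intronic and 9 exonic, shares close to those of all NT-only peaks. The H3K4me3 and NFATc2 summits lay within 500 bp in 140 of the 169 (82.8%), with a median of 254 bp. The overlap by which the 169 were taken already limits this distance. Compared with the other NT-only peaks, the 169 had more tags (median 90 against 60) at a lower fold (8.85 against 10.24), with a higher background index (6.11 against 4.53). Only 1 of the 169 reached a CpG ratio of 0.6.

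From the other side, 173 NFATc2 peaks overlapped an NT-only peak, with a median of 93 NFATc2 tags. The 2060 at shared peaks had a median of 78 and the 7044 outside NT H3K4me3 peaks had 59. Median NFATc2 fold enrichment did not follow this order, with 12.9 at NT-only peaks, 11.9 at shared peaks and 13.79 outside. Of the 10 NT-only peaks with the most NFATc2 tags, the first was 56.5 kb downstream of the start site of Gcnt1, a glycosyltransferase of core 2 O-glycans (624 NFATc2 tags, 216 H3K4me3 tags). The next was 36.5 kb upstream of Il1rl1, the IL-33 receptor (430 and 117). Then came Katnal1 (419 and 147) and Tbl1xr1, a subunit of a corepressor complex (369 and 189). Peaks were found also near Ncf1, which encodes the p47phox subunit of the NADPH oxidase (285 and 224), Rnf157 (285 and 134), Arhgap24 (280 and 67), Arhgap26 (262 and 90), Tmco5 (249 and 106) and Fermt1 (247 and 59). The 11th, in the Batf2 gene, had 245 NFATc2 tags and 261 H3K4me3 tags. At Gcnt1, Tbl1xr1 and Tmco5 the NFATc2 summit lay outside the NT-only peak, 3519, 1849 and 1003 bp from the H3K4me3 summit.

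The sequences at the NFATc2 summits of 8 of these regions are given as 101 bp of the forward strand of mm9. They are named by the nearest gene, and show how NFAT and AP-1 motifs occur at the NFATc2 summits. The Gcnt1, Tbl1xr1 and Tmco5 stretches lie outside the NT-only peak. Capitals mark GGAAAA on either strand (GGAAAA or TTTTCC) and TGANTCA, the AP-1 motif with any middle base.
Il1rl1 (chr1:40450212-40450312): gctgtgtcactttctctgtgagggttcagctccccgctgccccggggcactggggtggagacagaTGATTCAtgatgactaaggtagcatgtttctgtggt
Rnf157 (chr11:116267828-116267928): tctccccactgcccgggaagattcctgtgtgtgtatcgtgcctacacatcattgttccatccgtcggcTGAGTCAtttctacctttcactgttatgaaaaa
Tbl1xr1 (chr3:21862878-21862978): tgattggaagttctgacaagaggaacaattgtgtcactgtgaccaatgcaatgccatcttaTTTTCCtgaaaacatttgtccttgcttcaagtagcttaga
Arhgap24 (chr5:103222372-103222472): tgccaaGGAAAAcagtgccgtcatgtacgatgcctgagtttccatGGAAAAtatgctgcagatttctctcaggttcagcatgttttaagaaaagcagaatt
Tmco5 (chr2:116815984-116816084): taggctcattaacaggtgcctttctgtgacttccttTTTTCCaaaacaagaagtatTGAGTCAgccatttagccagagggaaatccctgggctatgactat
Fermt1 (chr2:132972468-132972568): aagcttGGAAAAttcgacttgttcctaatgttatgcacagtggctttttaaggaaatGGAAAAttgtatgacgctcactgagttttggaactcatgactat
Batf2 (chr19:6157450-6157550): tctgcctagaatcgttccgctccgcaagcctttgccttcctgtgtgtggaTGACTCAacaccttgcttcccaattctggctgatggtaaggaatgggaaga
Gcnt1 (chr19:17347646-17347746): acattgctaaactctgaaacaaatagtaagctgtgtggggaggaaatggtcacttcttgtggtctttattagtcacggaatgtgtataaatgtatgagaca
The Arhgap24 and Fermt1 stretches held 2 copies of GGAAAA each, and the Tmco5 stretch held 1 together with TGAGTCA. The Il1rl1, Rnf157 and Batf2 stretches held TGANTCA alone. The Tbl1xr1 stretch held 1 GGAAAA, and the Gcnt1 stretch held neither motif, as did those of Katnal1 and Ncf1, which are not printed. No stretch was taken at Arhgap26. These letters are a description and not a test of binding.

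Over all 173 NFATc2 peaks at NT-only peaks, GGAAAA was found within 100 bp of the NFATc2 summit in 64, 37.0% (30.2 to 44.4%). The share was 47.9% (45.8 to 50.1%) at shared peaks, 45.2% outside NT H3K4me3 peaks and 45.6% over all 9438 NFATc2 peaks. TGANTCA was found in 46 of the 173, 26.6% (20.6 to 33.6%), against 16.7% (15.2 to 18.4%) at shared peaks, 23.0% outside and 21.8% over all. Both strands were read, and the motifs cannot overlap each other. NFATc2 peaks at NT-only H3K4me3 peaks thus had the lower share of GGAAAA and the higher share of TGANTCA beside those at shared peaks.

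The genes nearest to NT-only peaks were spread widely. The 826 members had 769 nearest protein-coding genes, of which 48 had 2 members or more. The nearest protein-coding gene had a shared peak at a TSS for 501 members, 60.7% (57.3 to 63.9%), and for 64.4% of the 697 away from a TSS, where 45.7% of all protein-coding genes had such a peak. Genes with 3 members or more are named here after their values were seen. Rreb1, a zinc finger protein that acts with RAS signalling, had 5 (33 to 112 tags), 4 of them 136 to 197 kb upstream. Tbl1xr1 had 3, all overlapped by NFATc2 peaks, at 91.9 to 252 kb upstream. Hk2, the inducible hexokinase of glycolysis, had 3 (72 to 132 tags), 2 of them in the gene and overlapped by NFATc2 peaks. Odz4, Tbc1d7, Arhgap26 and Jmjd1c had 3 each.

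The gene lists cover DC functions, other cell types and housekeeping genes. Of the 358 listed genes 13 were the nearest gene of a member, 3.63%, near the 3.44% of all protein-coding genes. An NT-only peak at a TSS was found at 0 or 1 gene per list, where 0.523% of all protein-coding genes had one, so an absence from these lists is not a result about them. Among the transcription factors of DCs and myeloid cells, 0 of 25 had one at a TSS, where 22 had a shared peak, and 3 were the nearest gene of a member, 12.0%. Batf3, the AP-1 factor that cross-presenting DCs need, had members 13.0 kb (116 tags, fold 9.96) and 2.85 kb (108 tags, fold 8.41) upstream, and an NFATc2 peak overlapped the latter. Runx1, a regulator of blood stem cells, had 1 in an intron with 145 tags, a fold of 12.83 and a −log10 p of 26.4. Bcl6, a transcriptional repressor, had members 27.8 and 73.9 kb upstream with 97 and 87 tags. These are listed genes that were nearest to a member, and counts of 3 or 4 genes do not set this list or the next apart.

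In the dectin-1, calcineurin and NFAT list 0 of 31 genes had an NT-only peak at a TSS, where 29 had a shared peak, and 4 were nearest to a member (12.9%). Plcg2, the phospholipase that raises calcium downstream of dectin-1, had the peak of 194 tags described above, 16.0 kb upstream. Bcl10, an adaptor of the CARD9 complex, had 119 tags at a fold of 11.5, 7.03 kb upstream. Src had 93 tags in an intron. Nfatc2 itself had 2 in introns, 12.7 and 19.9 kb from its TSS, with 69 and 94 tags at folds of 6.9 and 6.07, both with an FDR above 5%.

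Of 57 cytokine and chemokine genes none had an NT-only peak at a TSS, 21 had a shared peak and 36 had no NT peak there. Il2, the cytokine whose promoter is a classical NFAT target, was nearest to a member 31.0 kb upstream (51 tags, fold 10.48, FDR 8.2%), with an NFATc2 summit 16.4 kb from it. Spp1, osteopontin, was nearest to one 8.91 kb upstream (153 tags, fold 7.82), with an NFATc2 summit at 2.46 kb. Of 24 antigen presentation and costimulation genes only Icosl, the ligand of ICOS, was nearest to a member (88 tags), and of 35 pattern recognition and phagocytic receptors only Tlr13, a sensor of bacterial ribosomal RNA (119 tags, fold 13.89). Developmental transcription factors of other lineages (93 genes), fibroblast and muscle markers (22) and housekeeping genes (14) had none, and of 28 neuronal markers Rbfox1 had 1 of 54 tags, 202 kb from its TSS.

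At single loci the member could be read against its neighbours. The Fli1 member, in an intron of this ETS factor of blood cells at chr9:32314771-32317433, had 193 tags, a fold of 13.28 and a −log10 p of 26.5. The shared peaks on its 2 sides had 223 tags (fold 11.34) and 308 tags (fold 10.03) in NT, so the member had fewer tags at a higher fold than both. Those neighbours had 209 and 173 tags in the curdlan list and 172 and 228 tags in the curdlan and FK506 list, while the member region was in neither list. An NFATc2 peak of 126 tags covered the member, and 1 of 100 tags covered the neighbour nearer to the TSS. The promoter peak had 1549, 1577 and 1435 tags in the 3 H3K4me3 lists.

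Upstream of Csk, the member was the farthest of 3 NT peaks in a row, with 244, 122 and 1782 tags. The middle peak, with fewer tags and a lower fold than the member (6.18 against 10.08), overlapped the curdlan list, where 1 peak of 1633 tags reached over both, and missed the curdlan and FK506 list. At Batf3 the promoter peak had 430, 500 and 453 tags, and the nearer member ended 0.336 kb before it. At Tbl1xr1, the member of 186 tags (fold 7.97) had a direct neighbour of 172 tags (fold 6.43) that overlapped the curdlan and FK506 list alone. At Csk and Tbl1xr1 a neighbour with fewer tags and a lower fold than the member overlapped a treated list, at Csk through the long peak of 1633 tags. Over all NT peaks, those with fewer tags were more often NT-only, so both cases do not stand for the rest. These loci were chosen after their values were seen.

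**Figure D5:**
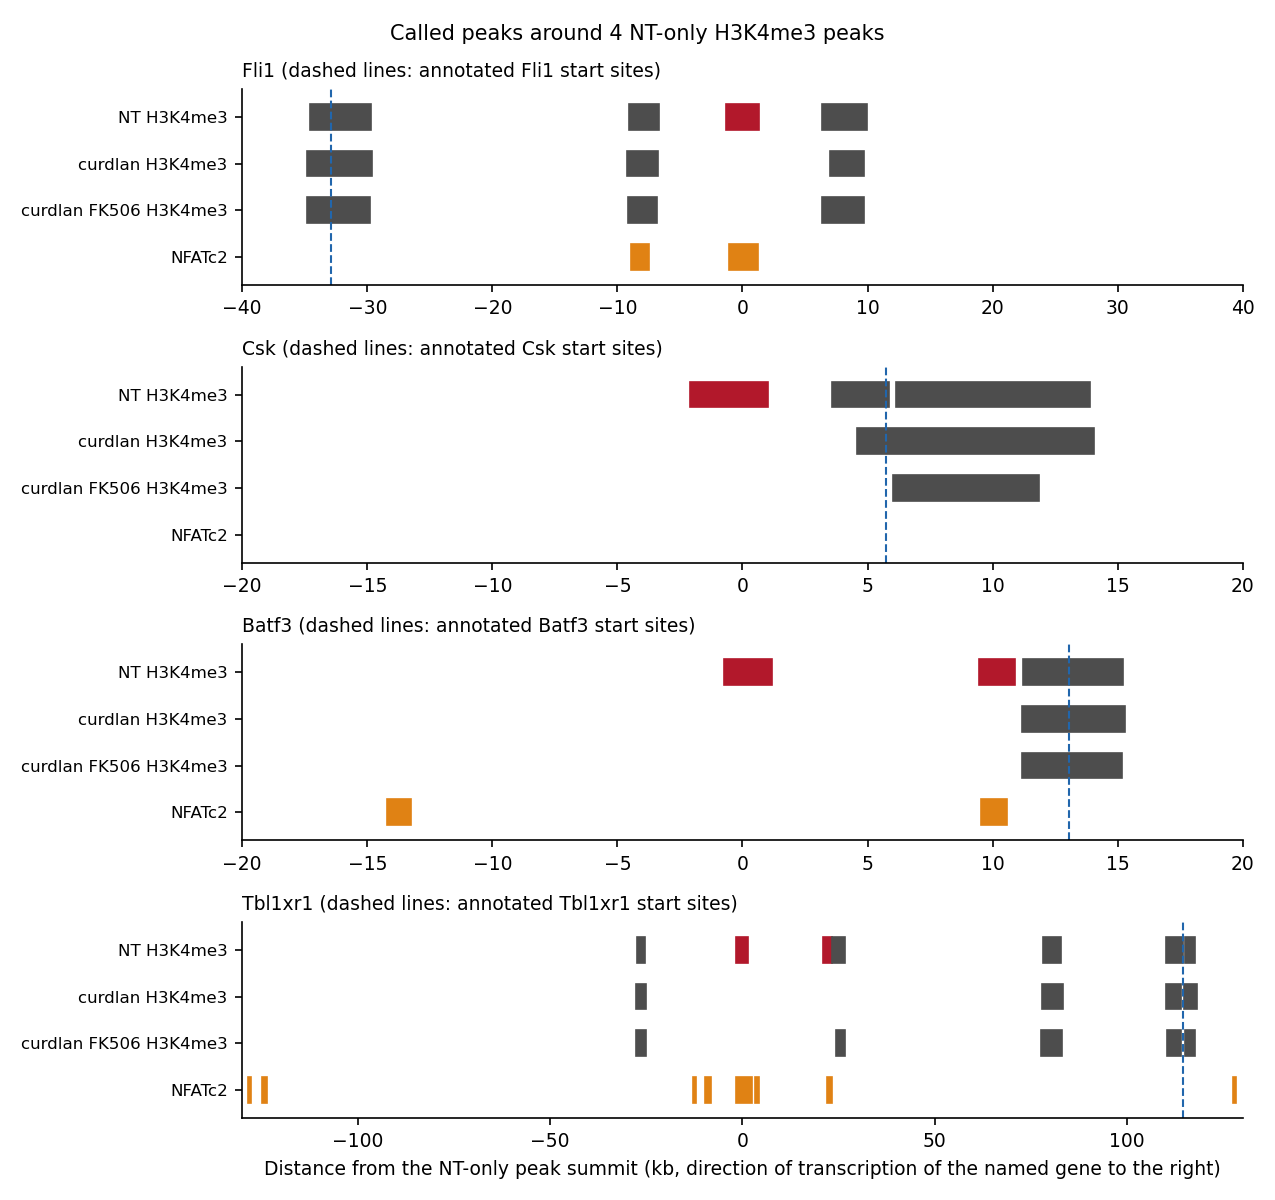
Called peaks of the 4 lists around an NT-only peak at Fli1, Csk, Batf3 and Tbl1xr1, by distance from its summit (kb, transcription of the named gene to the right). Red blocks are NT-only peaks, grey blocks other H3K4me3 peaks, orange blocks NFATc2 peaks and dashed lines start sites of the named gene. The red blocks have no counterpart in the treated rows, and grey blocks on either side of the Fli1 member recur in all 3 H3K4me3 rows.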

How the data were processed

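H3K4me3 and NFATc2 ChIP-seq of D1 cells gave 4 peak lists from 8 libraries. Bowtie alignments to mm9 were used by the authors to call peaks in every ChIP library against the matching input. The headers name MACS 1.4.2, with p limited to 1e-05 and band widths of 1000 bp (H3K4me3) and 300 bp (NFATc2). The deposited columns are the position, the summit, a raw count of tags and a score of −log10 p times 10. The authors' fold enrichment is a ratio to the local input background, and their FDR is a MACS estimate in percent. The tags left after the caller's limit on duplicates were not counted here, so header totals stand for depth.

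From these lists, overlaps, gaps and distances from summits were computed with Python 3.11.15, numpy 2.4.6, pandas 2.3.3 and scipy 1.17.1, and figures with matplotlib 3.10.9. Genes (37310, 22380 of them protein-coding) and sequence came from the GENCODE M1 annotation and the genome of NCBI mouse build 37, which is mm9. Distances to a gene are to the nearest TSS of any transcript. Windows were 1 kb for a TSS and 20 kb for NFATc2, and composition was read in 1001 bp. Of 360 listed gene names 358 were found, some by a synonym (Sfpi1 for Spi1). Overlap, distance and interval routines passed 9 of 9 checks on planted answers.

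Members and gene lists were chosen with earlier results of these data known. With 1 library per condition no p-value was computed, shares carry 95% Wilson intervals, and comparisons with equal ranges of strength used the quartiles of the NT-only peaks. For CpG content only the shared peaks were limited to these ranges. The text names the 20 members with the most tags within 1 kb of a protein-coding TSS, the 10 with the most tags over 10 kb from a TSS, the 10 with the smallest p, listed genes at or nearest to a member, the 10 with the most NFATc2 tags at an overlapping peak, and the peaks at the edge of the rule, with predicted genes counted and mostly not named. Genes outside this rule are marked, and 1 member that the rule names is not reported here. Alternatives were stricter p and FDR limits, other overlap rules, other windows and other definitions of distance and composition.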

Additional observations from a re-analysis of the deposited data

How the results depend on the processing

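No paired analysis was possible because each condition had 1 ChIP library, so the groups share fewer than 2 replicate numbers. Of 48 recomputed values, 26 stayed within the limits of the value reported (1.5 times for the number of peaks, the 95% interval for shares and medians). With NT peaks limited to p of 1e-10 or less, or to an FDR of 5% or less, the number of NT-only peaks was 231 and 313 in place of 826, and their median tags were 94 and 88 in place of 66. The median CpG ratio was 0.258 at the p limit. With the treated lists limited to p of 1e-10 or less, there were 1760 NT-only peaks with a median of 71 tags, a TSS share of 20.1%, a median gap of 21.6 kb and a CpG ratio of 0.287. The number of NT-only peaks thus changed with the calling limits, and their TSS share stayed between 13.5 and 20.1% under these rules, against 75.5 to 79.5% in shared peaks. The median gap was 20.4 kb with gaps of up to 1 kb counted as shared and 20.1 kb from summit to summit. The CpG ratio of whole peaks was 0.256. By construction, the TSS share moved with its window, to 11.6% at 500 bp and 33.3% at 5 kb, and so did the NFATc2 share, to 34.1% at 10 kb and 63.2% at 50 kb. It was 27.7% with NFATc2 peaks of p of 1e-10 or less. Matching shared peaks on fold or p in place of tags gave an NFATc2 overlap of 20.2 and 15.0% in place of 4.54%, all 3 added after the data were seen. It gave a TSS share of 25.1 and 33.4% in place of 48.5%, of which the first 2 were added then. Leaving out chromosome 19 and chromosome 5 from 120 Mb, also added later, left 789 NT-only peaks with a median of 64 tags. Weak peaks in 1 library limit these values, and no spread between cultures can be given.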
